A study of Mus musculus and Homo sapiens with 75 samples.

Results

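The response of p42-transfected KO-52 cells to 2 h of lipopolysaccharide (LPS) was read from 6 poly-A RNA libraries, 3 of cells given LPS and 3 of untreated cells, out of 18 KO-52 libraries in 6 groups and 75 libraries in the whole series. KO-52 is a human acute myeloid leukaemia line with mutations in both copies of CEBPA, the gene of the myeloid transcription factor C/EBPα, whose full-length form is p42 and whose amino-terminally shortened form is p30. All 18 libraries came from cells electroporated with a GFP plasmid that carried p42-FLAG, p30-FLAG or no insert (empty vector, EV), sorted for GFP the next day, and left untreated or given LPS of Escherichia coli O111:B4 at 100 ng/mL a day after the sort. The study asked how the 2 forms of C/EBPα shape the inflammatory response of blood cells, and the contrast described here is p42 with LPS against p42 untreated, over all genes. The p42 was overexpressed transiently in a single cell line that also keeps its own mutant CEBPA, so the groups share the mutant background and the electroporation, and none holds wild-type C/EBPα at its native level.

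LPS is a glycolipid of the bacterial outer membrane that is handed by CD14 to the receptor TLR4 and its partner MD-2 (gene LY96). The adaptors MyD88 and TRIF then activate IκB kinase and MAP kinases, NF-κB enters the nucleus, and within the first hours cytokines, chemokines and the inhibitors that later end the response are transcribed. TRIF also leads to interferon-β and, through it, to a later wave of interferon-stimulated genes. C/EBPα and its relatives bind beside NF-κB and AP-1 at many of these genes in myeloid cells.

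Each KO-52 library held 21877850 to 32414233 counts on genes, and the 6 p42 libraries held 22557545 to 32414233. The 92 ERCC spike-in RNAs, synthetic transcripts added in a fixed amount, took 0.331 to 0.755% of the counts over the 18 libraries. Expression is given as spike-in scaled CPM, in which library sizes were set from the spike-ins and not from the genes. CEBPA, read first as the targeted gene, stood at 919, 991 and 1639 CPM in untreated p42 libraries and 820.4, 1008 and 1561 CPM in p42 libraries with LPS. It stood at 1744, 2346 and 1033 CPM in untreated EV libraries and 2229, 2233 and 2045 CPM in untreated p30 libraries. The p42 values overlapped those of EV and lay below those of p30. The counts do not separate endogenous mutant transcripts from those of a plasmid. They thus neither check the labels nor show the p42 overexpression that the study reports. Why CEBPA was not higher in p42 than in EV was not tested. The p42 libraries held the myeloid genes CD33 (57.0 to 112 CPM), MPO (115 to 622 CPM) and SPI1 (144 to 319 CPM). FLT3 was at most 0.984 CPM, MS4A1 (B cells) reached 1 count and PF4 (megakaryocytes) 1 count. Other markers of these cell types were higher, with ITGA2B (megakaryocytes) at 25.4 to 66.8 CPM and CD79A (B cells) at 1.02 to 3.77 CPM. The epithelial genes EPCAM and KRT18 were at 10.8 to 18.1 CPM and 7.23 to 13.7 CPM. CD3D reached 69.0 CPM while CD3E, its partner in T cells, stayed at or below 0.266 CPM. The summed T cell markers ran from 44.5 to 54.8 CPM untreated and from 44.3 to 73.1 CPM with LPS. For megakaryocyte markers the sums were 26.1 to 50.4 CPM untreated and 42.5 to 68.1 CPM with LPS. For epithelial markers they were 20.3 to 31.8 CPM and 18.5 to 24.9 CPM, and for B cell markers 1.62 to 3.12 CPM and 1.55 to 5.38 CPM.

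After 2 h of LPS the p42 cells raised a set of known NF-κB targets, chemokines and cytokines above all, and few genes fell. Among the 15 largest rises with a mean of at least 50 counts and no overlap were DLL4, IL1A, CCL4, IL6, EBI3 and TNF, with log2 changes of 3.96 to 6.55, and the 2 falls under the same limits were EGR3 and NR4A2. Of 21272 genes tested, 150 were higher at a Benjamini-Hochberg adjusted p under 0.05 in edgeR's quasi-likelihood test (0.705% of all tested) and 4 were lower (0.0188%). The median log2 change of the 150 was 1.95, against 0.18 over all tested genes, and 71 of them had a log2 change over 2. In 140 of the 150 all 3 LPS libraries lay above all 3 untreated libraries, which held in that direction for 3.6% of all tested genes, and 3 of the 4 lower genes were apart downward, as were 0.588% of all. By type, 118 of the 150 were protein-coding in the annotation, 12 were long non-coding RNAs, and 14 had no entry under their symbol.

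The number of calls depended on the scaling. With TMM scaling, which sets library sizes from the genes themselves, 274 genes were higher (1.29%) and 53 lower (0.249%), so that the share of calls that were higher went from 97.4% to 83.8%. Leaving out untreated replicate 3 raised the number of higher genes to 404, and leaving out LPS library a raised it to 319. Leaving out untreated replicate 1, untreated replicate 2, LPS library b or LPS library c lowered it to 81, 84, 96 or 80. Of the 150 genes, 72 were called with each of the 6 libraries left out in turn.

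**Figure D1:**
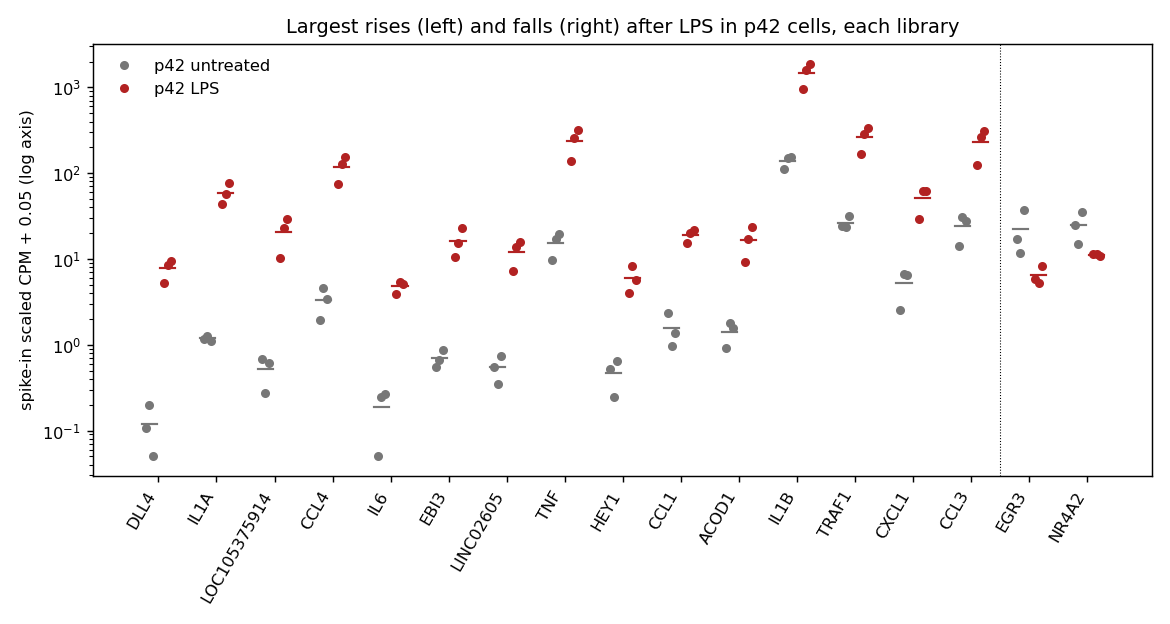
Spike-in scaled CPM (plus 0.05, log axis) of the 15 largest rises and the 2 falls that met the rule for named genes, one point per library and a bar at the mean of each group of 3. For the 15 genes on the left each LPS library lies above each untreated library, and for EGR3 and NR4A2 on the right each lies below.

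None of the 3 genes of the LPS receptor passed the test. TLR4, which binds LPS with MD-2, was at 44.8, 46.3 and 81.8 CPM untreated and 30.9, 55.9 and 63.7 CPM with LPS, with a log2 change of -0.20 ± 0.31 (SE, adjusted p = 0.999). LY96, the MD-2 gene, was at 4.35, 5.91 and 6.72 CPM and 3.1, 5.05 and 5.26 CPM (log2 change -0.34 ± 0.38, adjusted p = 0.999). CD14, the LPS co-receptor, was at 4.6, 5.21 and 7.87 CPM and 3.4, 6.21 and 7.65 CPM (log2 change -0.04 ± 0.37, adjusted p = 0.999). In these 3 genes, named outside the rule because they form the receptor, the groups overlapped. Of the whole list, 3 of the 22 tested receptor, adaptor and kinase genes rose and none fell, with a list median of 0.32.

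IRAK2, a kinase that sustains signalling from MyD88, rose from 6.22, 7.38 and 6.85 CPM to 24.1, 37.7 and 39.1 CPM, a log2 change of 2.30 ± 0.34 (adjusted p = 7.4e-09). MAP3K8, the kinase that links IκB kinase to ERK, went from 46, 49.2 and 68.6 CPM to 111, 164 and 241 CPM (log2 change 1.66 ± 0.31, adjusted p = 4.62e-05). The groups of both genes were fully apart. TICAM1, which encodes the adaptor TRIF, went from 13.9, 17.7 and 29.7 CPM to 27.3, 54.5 and 64.3 CPM (log2 change 1.25 ± 0.32, adjusted p = 0.0132), and here the lowest LPS library lay below the highest untreated one. Its call was lost on leaving out any of 4 libraries in turn, with adjusted p values from 0.161 to 0.42.

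Of the 5 NF-κB subunit genes, 4 rose and RELA did not pass the test. NFKB2, the p100 precursor, stood at 26.9, 39.5 and 54 CPM untreated and 78.1, 160.1 and 194 CPM with LPS, a log2 change of 1.84 ± 0.32 (adjusted p = 2.48e-06). RELB, the usual partner of the processed NFKB2 product, was at 17.3, 24.4 and 29.4 CPM and 37.1, 72.4 and 78.6 CPM (log2 change 1.40 ± 0.32, adjusted p = 0.00218). REL, which encodes c-Rel, was at 40.8, 25.6 and 59.8 CPM and 63.2, 113 and 145 CPM (log2 change 1.35 ± 0.31, adjusted p = 0.00325). All 3 had each LPS library above each untreated library. NFKB1, the p105 precursor of p50, had the smallest called change, from 66.6, 74.2 and 104 CPM to 116, 196 and 239 CPM (log2 change 1.17 ± 0.30, adjusted p = 0.0209). RELA, the main activating subunit, was at 49.2, 74.4 and 98.5 CPM and 58, 92.2 and 119 CPM (log2 change 0.28 ± 0.30, adjusted p = 0.999), with overlapping groups. NFKB1 lost its call on leaving out any of 4 libraries in turn, RELB any of 3 and REL either of 2, and all 4 calls held with TMM scaling.

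NF-κB also switches on its own inhibitors. Of 12 tested, 6 rose and none fell, with a list median of 1.34. TNFAIP3, the ubiquitin-editing enzyme A20, went from 38.8, 48 and 71.6 CPM to 221, 396 and 505 CPM (log2 change 2.83 ± 0.32, adjusted p = 2.72e-15). NFKBIZ, the nuclear IκBζ that several late cytokine genes need, went from 37.7, 41.7 and 63.2 CPM to 189, 346 and 441 CPM (2.77 ± 0.32, adjusted p = 1.05e-14). ZC3H12A, the RNase Regnase-1 that degrades cytokine transcripts, went from 61.7, 82.5 and 115 CPM to 325, 583 and 763 CPM (2.69 ± 0.32, adjusted p = 1.56e-14). In these 3 genes the LPS and untreated libraries were widely apart. NFKBIA, which encodes IκBα, the inhibitor that holds NF-κB in the cytoplasm, went from 74.5, 111 and 128 CPM to 272, 486 and 618 CPM (2.13 ± 0.31, adjusted p = 5.08e-09). NFKBID and NFKBIE, a nuclear and a cytoplasmic IκB, changed by 1.38 ± 0.32 (adjusted p = 0.00309) and 1.31 ± 0.31 (adjusted p = 0.00481) on the log2 scale. Both lost their call without untreated replicate 1 (adjusted p = 0.274 and 0.196), untreated replicate 2 (0.0859 and 0.054) or LPS library c (0.1499 and 0.166).

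Many of these genes carry a match to the NF-κB motif just upstream of their start. The 120 bases before the annotated transcript start (GENCODE v44, hg38) of 9 induced genes follow, in the direction of transcription and ending at the base before the start, because they show the same short motif in front of subunits, inhibitors, chemokines and a cytokine. The capitals mark each match to the kB consensus on either strand, and where 2 matches overlap they run together.
NFKB1 (chr4:102501239-102501358, plus strand): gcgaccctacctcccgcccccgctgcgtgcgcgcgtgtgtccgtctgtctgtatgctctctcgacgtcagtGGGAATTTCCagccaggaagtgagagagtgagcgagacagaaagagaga
NFKB2 (chr10:102395585-102395704, plus strand): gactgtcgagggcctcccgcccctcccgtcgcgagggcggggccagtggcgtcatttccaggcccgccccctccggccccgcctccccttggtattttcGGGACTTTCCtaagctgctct
REL (chr2:60881454-60881573, plus strand): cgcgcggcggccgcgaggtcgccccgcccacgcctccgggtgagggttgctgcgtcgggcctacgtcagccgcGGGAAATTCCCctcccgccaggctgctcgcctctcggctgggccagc
NFKBIA (chr14:35404750-35404869, minus strand): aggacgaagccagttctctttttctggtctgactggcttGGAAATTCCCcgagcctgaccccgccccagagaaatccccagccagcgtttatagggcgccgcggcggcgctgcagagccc
TNFAIP3 (chr6:137867139-137867258, plus strand): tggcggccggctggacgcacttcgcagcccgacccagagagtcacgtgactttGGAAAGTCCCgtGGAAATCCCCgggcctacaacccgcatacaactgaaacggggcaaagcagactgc
IL6 (chr7:22727080-22727199, plus strand): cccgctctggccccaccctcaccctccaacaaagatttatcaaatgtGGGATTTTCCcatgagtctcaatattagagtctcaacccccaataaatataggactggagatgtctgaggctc
CXCL1 (chr4:73869273-73869392, plus strand): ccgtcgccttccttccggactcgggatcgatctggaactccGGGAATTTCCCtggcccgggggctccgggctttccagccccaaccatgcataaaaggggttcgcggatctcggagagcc
CXCL2 (chr4:74099196-74099315, minus strand): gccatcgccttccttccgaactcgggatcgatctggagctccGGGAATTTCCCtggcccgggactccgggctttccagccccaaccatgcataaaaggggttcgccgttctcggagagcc
CXCL3 (chr4:74038690-74038809, minus strand): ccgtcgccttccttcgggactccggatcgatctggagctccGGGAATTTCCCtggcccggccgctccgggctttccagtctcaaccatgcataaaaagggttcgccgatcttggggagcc
In the CXCL1, CXCL2 and CXCL3 windows, 3 chemokine genes that rose together, the match is the same 11 letters at nearly the same distance, starting 79, 78 and 79 bases upstream. The IL6 match starts 73 bases upstream and the NFKBIA match 81. The kB consensus was found in the 250 bases upstream of 33 of 118 protein-coding genes that rose (28.0%) and of 823 of all 13525 tested protein-coding genes (6.09%), and the printed windows were picked for it. Among the 15 largest rises 13 had a window, with the kB consensus in 2 (15.4%). TGANTCA, the AP-1 motif, was in 14 of the 118 (11.9%) against 3.73% of all, and TTGCNNAA, the C/EBP motif, also in 14 (11.9%) against 6.09% of all. TGACGTCA, the CRE, was in 3 of 118 (2.54%) against 2.85% of all. The interferon-response element ISRE was in 7 of 118 (5.93%) against 2.64% of all. These are counts of letters on both strands, and binding was not measured.

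The immediate early genes divided, with 4 of 17 tested higher and 2 lower. IER3, a stress-induced survival factor, rose from 17.5, 23.1 and 25.3 CPM to 76.2, 155 and 170.0 CPM (log2 change 2.61 ± 0.33, adjusted p = 1.52e-12). EGR2, a zinc-finger factor, rose from 4.96, 5.38 and 5.82 CPM to 20.7, 28.7 and 29.4 CPM (2.29 ± 0.34, adjusted p = 6.5e-09). BTG2, an antiproliferative gene, rose from 96.4, 101 and 151 CPM to 314, 471 and 629 CPM (2.02 ± 0.30, adjusted p = 1.71e-08). The LPS libraries of all 3 genes were above every untreated library. IER5 changed by 1.21 ± 0.30 (adjusted p = 0.0126). Its call was lost without untreated replicate 1 (adjusted p = 0.3165), untreated replicate 2 (0.2025), LPS library b (0.0937) or LPS library c (0.466).

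The 2 named falls were of the same class. EGR3, a zinc-finger factor related to EGR2, fell from 17, 11.8 and 37.2 CPM to 5.8, 5.23 and 8.31 CPM, a log2 change of -1.77 ± 0.32 (adjusted p = 1.69e-05). NR4A2, an orphan nuclear receptor, fell from 24.9, 15.1 and 35.1 CPM to 11.4, 11.3 and 10.9 CPM (-1.16 ± 0.32, adjusted p = 0.0353). The 2 genes had each LPS library below each untreated library, and untreated replicate 3 was the highest of the 6 in both. EGR3 was not called by DESeq2 (adjusted p = 0.0974). NR4A2 was not called with TMM scaling (adjusted p = 0.0849) or by DESeq2 (adjusted p = 0.113), and lost its call on leaving out any of 4 libraries in turn. The other 2 called falls had means under 50 counts. BATF2, an AP-1 family member, stood at 0.167, 2.84 and 0.599 CPM and 0.264, 0.0887 and 0.0554 CPM (-2.99 ± 0.71, adjusted p = 0.0063), and without untreated replicate 2 its adjusted p was 1.00. LOC124901421, an uncharacterized locus, had a log2 change of -2.00 ± 0.45 (adjusted p = 0.00245).

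Apart from BATF2, none of the 14 AP-1 family genes passed the test. At an unadjusted p under 0.05 there were 2 higher and 2 lower, DESeq2 called 0 higher and 1 lower, and edgeR with TMM scaling called 0. ATF4 and JUNB, the members with most counts, were at 430.2, 581 and 700.0 CPM against 400.4, 599 and 744 CPM (log2 change 0.03 ± 0.28, adjusted p = 0.999) and at 127, 189 and 260.2 CPM against 179.8, 332 and 437 CPM (0.72 ± 0.30, adjusted p = 0.55). FOS, named outside the rule as the partner of JUN proteins in AP-1, was at 44.6, 69.6 and 96.9 CPM untreated and 24.8, 47.5 and 55.5 CPM with LPS (-0.73 ± 0.31, adjusted p = 0.6), with overlapping groups.

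Brakes on MAP kinase and cytokine signalling moved in part. Of 11 phosphatase and mRNA decay genes 2 rose, and 3 with TMM scaling. DUSP4 rose from 9.14, 11.4 and 16.1 CPM to 25.8, 45.6 and 63.8 CPM (1.88 ± 0.33, adjusted p = 3.13e-06), and DUSP2 from 16.4, 19.5 and 24.7 CPM to 31.2, 68.1 and 79.8 CPM (1.57 ± 0.32, adjusted p = 0.000247). Both encode nuclear MAP kinase phosphatases, and their groups did not overlap. Of 8 SOCS genes 1 rose, SOCS1, an inhibitor of JAK kinases, from 1.64, 3.89 and 5.99 CPM to 6.09, 12.3 and 14.2 CPM (1.50 ± 0.36, adjusted p = 0.00699). SOCS1 lost its call without untreated replicate 1 (adjusted p = 0.55), untreated replicate 2 (0.065), LPS library b (0.102) or LPS library c (0.187). SOCS4 and SOCS7, with the most counts in that list, changed by 0.55 ± 0.31 (adjusted p = 0.882) and 0.20 ± 0.31 (adjusted p = 0.999).

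Among cytokines and growth factors 8 of 23 tested rose and none fell, with a list median of 1.04. IL1A, an alarmin that signals through the IL-1 receptor, rose from 1.12, 1.22 and 1.07 CPM to 44, 56.7 and 76.9 CPM, 51.7-fold (log2 change 5.69 ± 0.40, adjusted p = 1.48e-42). IL1B, its secreted relative next to it on chromosome 2, had 111, 151 and 156 CPM untreated and 953, 1594 and 1892 CPM with LPS. Its mean went from 139 ± 24.3 to 1479.6 ± 479 CPM (SD, n = 3), a log2 change of 3.41 ± 0.31 with an adjusted p of 6.37e-24. TNF, the first cytokine of most LPS responses, went from 9.59, 16.9 and 19.6 CPM to 139, 258 and 319 CPM, with means of 15.4 ± 5.18 and 239 ± 91.5 CPM (SD, n = 3). TNF thereby rose 15.5-fold (log2 change 3.96 ± 0.34, adjusted p = 7.48e-27). In IL1A, IL1B and TNF the LPS libraries lay far above all untreated libraries.

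IL6, the pleiotropic cytokine behind the acute-phase response, was nearly absent before LPS, at 0, 0.199 and 0.214 CPM, and reached 3.81, 5.41 and 5.1 CPM (log2 change 5.11 ± 0.67, adjusted p = 1.55e-11). DESeq2 gave IL6 an adjusted p of 0.0642. EBI3, a subunit of IL-27 and IL-35, went from 0.502, 0.623 and 0.813 CPM to 10.5, 15.3 and 22.8 CPM (4.65 ± 0.42, adjusted p = 4.53e-25). CSF3, which encodes the granulocyte growth factor G-CSF, had 2 counts in the 3 untreated libraries together and 142 in the LPS libraries, a ratio of 94.4 with an exact 95% counting interval of 25.7 to 787. CSF2, which encodes GM-CSF, had 0 and 16 counts, so that it was at least 7.09-fold higher against a floor of 3 counts over the untreated group, and it was not called with TMM scaling (adjusted p = 0.216) or by DESeq2 (adjusted p = 0.272).

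The chemokines had the highest list medians. Of 7 tested CXC chemokines 5 rose (list median 2.15), and 3 of 7 with TMM scaling. CXCL1, CXCL2 and CXCL3 attract neutrophils through CXCR2 and lie on chromosome 4. CXCL1 rose from 2.51, 6.7 and 6.51 CPM to 29.5, 61.1 and 62.3 CPM (3.28 ± 0.35, adjusted p = 2.36e-17). CXCL2 rose from 13.8, 17.6 and 21.7 CPM to 90.1, 188 and 202 CPM (3.18 ± 0.33, adjusted p = 4.21e-18). CXCL3 rose from 9, 14.6 and 18.4 CPM to 48.5, 90.1 and 99.1 CPM (2.50 ± 0.33, adjusted p = 2.95e-11). The groups were apart in all 3 genes. Their sequences are alike, and the study counted uniquely mapping reads, so reads that fit several of them may be missing.

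CXCL8, which encodes the neutrophil attractant IL-8, went from 426, 455 and 546 CPM to 834, 1464 and 1755 CPM (1.51 ± 0.29, adjusted p = 6.34e-05). CXCL10, a chemokine that interferons also induce, went from 2.43, 12 and 3.12 CPM to 22.4, 18.4 and 37.7 CPM (2.15 ± 0.35, adjusted p = 2.47e-07), with untreated replicate 2 well above the other 2 untreated libraries. Each LPS library lay above each untreated library in both genes. With TMM scaling neither was called, CXCL8 at an adjusted p of 0.0607 and CXCL10 at 0.0727, and DESeq2 gave 0.133 and 0.0738.

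Of the 9 tested CC chemokines in the list 6 rose and none fell (list median 1.98). CCL4, an attractant of monocytes and T cells, rose from 1.9, 4.56 and 3.34 CPM to 74.7, 127 and 154 CPM, 36.2-fold (log2 change 5.18 ± 0.37, adjusted p = 2.21e-39). CCL3, its neighbour on chromosome 17, rose from 13.9, 30.6 and 27.4 CPM to 125, 263 and 311 CPM (3.28 ± 0.33, adjusted p = 1.88e-19). Both have near-identical copies, CCL4L2, CCL3L1 and CCL3L3, that did not pass the filter on counts. Since the study counted uniquely mapping reads, reads that fit a gene and its copy may be missing from both. CCL20, a ligand of CCR6, rose from 0.112, 0.0249 and 0.171 CPM to 3.02, 2.7 and 3.88 CPM (5.00 ± 0.76, adjusted p = 3.34e-08). CCL1, a ligand of CCR8, rose from 2.29, 0.922 and 1.33 CPM to 15.3, 20.1 and 21.8 CPM (3.65 ± 0.37, adjusted p = 1.49e-19). CCL2, the main monocyte attractant, rose from 40, 51.8 and 61.5 CPM to 141, 182 and 283 CPM (1.98 ± 0.31, adjusted p = 1.2e-07). In these 5 genes the 2 groups did not overlap. CCL5 changed by 1.32 ± 0.33 (adjusted p = 0.0102) and lost its call on leaving out any of 4 libraries in turn. CCL19, a CC chemokine outside the list and named after its value was seen, had 0 counts untreated and was at least 18.6-fold higher with LPS (adjusted p = 0.00135).

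Of 21 tested survival and effector targets of NF-κB 10 rose, none fell, and the list median was 0.73. TRAF1, a signalling adaptor of TNF receptors, rose from 24.1, 23.7 and 31.8 CPM to 168, 286 and 332 CPM (3.31 ± 0.33, adjusted p = 8.2e-20). ICAM1, the adhesion molecule that leukocyte integrins bind, rose from 40.6, 65.6 and 70.1 CPM to 248, 444 and 556 CPM (2.82 ± 0.32, adjusted p = 2.79e-15). BIRC3, an inhibitor of apoptosis, rose from 50.6, 45.9 and 64.8 CPM to 230.1, 361 and 514 CPM (2.78 ± 0.32, adjusted p = 7.07e-15). Every LPS library exceeded every untreated one. PTGS2, the prostaglandin-forming enzyme COX-2, rose from 22.6, 24.2 and 29.7 CPM to 103, 185 and 180.0 CPM (2.61 ± 0.33, adjusted p = 1.09e-12). TNFAIP2 and CD83, the latter a surface protein of activated dendritic cells, rose by 2.92 ± 0.32 (adjusted p = 1.37e-16) and 2.42 ± 0.32 (adjusted p = 2.78e-11) on the log2 scale.

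The gene with the largest log2 change among those with a mean of at least 50 counts was not a cytokine. DLL4, a membrane-bound ligand of Notch receptors on chromosome 15 (hg38, 40929340 to 40939073), rose from 0.0558, 0.15 and 0 CPM to 5.21, 8.51 and 9.53 CPM (log2 change 6.55 ± 0.63, adjusted p = 3.46e-22). HEY1, a transcriptional repressor that Notch signalling is known to induce, rose from 0.474, 0.199 and 0.599 CPM to 3.98, 8.16 and 5.6 CPM (3.83 ± 0.51, adjusted p = 2.78e-11). ACOD1, the enzyme that makes itaconate from a citric acid cycle intermediate, rose from 0.864, 1.74 and 1.5 CPM to 9.28, 16.9 and 23.4 CPM (3.59 ± 0.41, adjusted p = 4.82e-15). No LPS library of these 3 genes came near an untreated one. The non-coding LINC02605 rose from 0.502, 0.299 and 0.685 CPM to 7.17, 13.7 and 15.5 CPM (4.63 ± 0.47, adjusted p = 1.46e-19), and LOC105375914, an uncharacterized locus, from 0.641, 0.224 and 0.556 CPM to 10.2, 22.8 and 29.1 CPM (5.46 ± 0.45, adjusted p = 2.24e-30).

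Of 134 higher genes with a single place in the annotation, 18 lay within 100 kb of another, in 9 pairs. How often other sets of tested genes lie so close was not counted, so this is a description only. They include IL1A with IL1B (chromosome 2, 112773925 to 112836816), CCL3 with CCL4 (chromosome 17, 36088256 to 36105621), CXCL3 with CXCL2 (chromosome 4, 74036589 to 74099196) and ICAM1 with ICAM5 (chromosome 19, 10271093 to 10296778). MYCN with the antisense MYCNOS, UPB1 with ADORA2A-AS1, and ZC3H12A with the microRNA gene MIR6732 are also pairs. Their annotated spans overlap or abut, and whether counting used strand is not stated, so reads of such partners cannot be told apart.

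Interferon genes did not pass the test at 2 h. In edgeR none of 11 interferon regulators and none of 31 interferon-stimulated genes was called, with medians of 0.30 and 0.11 against 0.18 over all genes. At an unadjusted p under 0.05 there were 0 and 1 higher and 0 lower, DESeq2 called 0 in either list, and TMM scaling called 1 interferon-stimulated gene higher. IRF7, a regulator of interferon genes, was at 54.2, 138 and 176 CPM and 98, 115 and 209 CPM (log2 change 0.20 ± 0.30, adjusted p = 0.999). IFI6 and OAS3, the most counted interferon-stimulated genes, changed by -0.23 ± 0.28 (adjusted p = 0.999) and 0.35 ± 0.28 (adjusted p = 0.999). The groups overlapped in these 3 genes.

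Differentiation, stress and growth programmes also gave no calls in edgeR with spike-in scaling, nor in DESeq2. Of 15 granule and calprotectin genes 2 were higher at an unadjusted p under 0.05, and S100A9, a subunit of calprotectin, was at 282, 508 and 497 CPM and 269, 478 and 546 CPM (0.01 ± 0.30, adjusted p = 0.999), while LYZ, lysozyme, changed by -0.02 ± 0.29 (adjusted p = 0.999). Of 15 ATF4 targets 5 were higher at an unadjusted p under 0.05 and 3 were called higher with TMM scaling, and the amino acid transporter genes SLC7A5 and SLC3A2 changed by 0.16 ± 0.28 (adjusted p = 0.999) and 0.13 ± 0.29 (adjusted p = 0.999). Of 14 ER stress genes 0 passed an unadjusted p of 0.05 and 1 was called lower with TMM scaling, with -0.12 ± 0.28 (adjusted p = 0.999) for the chaperone HSPA5 and 0.21 ± 0.26 (adjusted p = 0.999) for CALR. Of 24 replication and mitosis genes and of 14 housekeeping genes 0 passed an unadjusted p of 0.05. MKI67, MCM4, ACTB and GAPDH changed by 0.34 ± 0.28, 0.18 ± 0.28, 0.26 ± 0.25 and 0.15 ± 0.26 on the log2 scale, each with an adjusted p of 0.999.

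**Figure D2:**
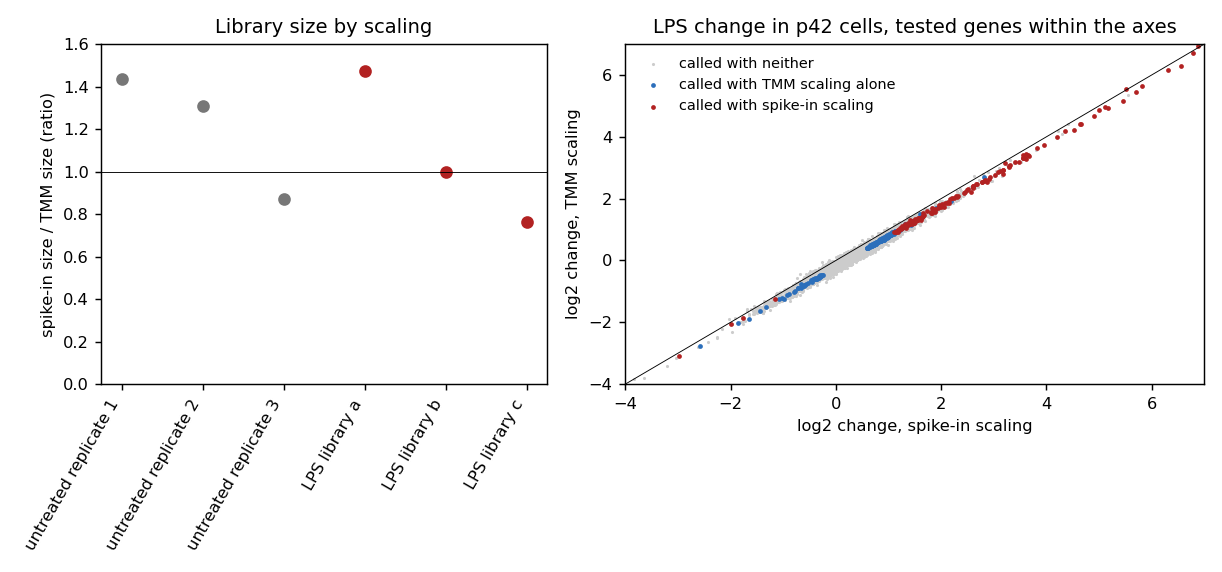
Left, the ratio of the spike-in library size to the TMM library size in the 6 p42 libraries, from 0.763 to 1.47. Right, log2 change after LPS in p42 cells with both scalings for the tested genes (LOC124904465 lies beyond the axes), where most points fall just below the line of equality, with medians of 0.18 (spike-in) and -0.01 (TMM).

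The 2 scalings differed by a small shift for all genes and by a larger spread between replicates with spike-ins. The median log2 change of all genes was 0.18 with spike-ins and -0.01 with TMM, and the median SE was 0.33 and 0.20. Spike-in shares were 0.733, 0.610 and 0.437% in untreated p42 libraries and 0.755, 0.516 and 0.387% with LPS. Their means, 0.593 ± 0.149% and 0.553 ± 0.187% (SD, n = 3), differed by less than the spread between replicates (exact permutation test, two-sided, p = 0.8, where 0.1 is the smallest p that 3 against 3 allow). The shares fell from R1 to R3 of the column headers in both groups. The permutation test did not pair libraries by that number. The median SD of a gene between replicates on the log2 scale was 0.39 untreated and 0.46 with LPS under spike-in scaling, and 0.21 and 0.14 under TMM scaling. LPS library a, with the largest spike-in share, was the lowest of the LPS libraries in 143 of the 150 higher genes under spike-in scaling and in 95 under TMM scaling. The same share over all tested genes was not counted. Its ratio of spike-in to TMM library size was 1.47, against 0.998 in library b and 0.763 in library c. All 150 had groups fully apart under TMM scaling, but they were called on these same libraries. The share of all tested genes that were apart with TMM was not counted.

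Of the 150 genes called higher with spike-ins, 132 were also called with TMM, and TMM called 142 others higher. The 18 lost ones had TMM adjusted p values from 0.0515 to 0.216. The smallest called log2 change in either direction was 1.10 with spike-ins and 0.39 with TMM. Of the 4 spike-in falls 2, EGR3 and LOC124901421, were among the 53 TMM falls. The TMM falls, all with a negative log2 change under spike-in scaling too, include genes chosen here after their values were seen. GPCPD1, a glycerophosphodiesterase, fell by 1.26 ± 0.17 with TMM (adjusted p = 0.000106) and had -1.08 ± 0.32 with spike-ins (adjusted p = 0.0788). HBEGF, an EGF receptor ligand, fell by 1.10 ± 0.19 with TMM (adjusted p = 0.002) and had -0.93 ± 0.32 with spike-ins (adjusted p = 0.237). RGS2, a regulator of G protein signalling, fell by 1.01 ± 0.16 with TMM (adjusted p = 0.000764) and had -0.80 ± 0.31 with spike-ins (adjusted p = 0.453).

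EV and p30 cells given the same 2 h of LPS serve as the comparison. With spike-ins 1638 genes were higher (7.7%) and 30 lower (0.141%) in EV, where the median log2 change of all genes was 0.41, and 3 were higher (0.0141%) and 14 lower (0.0658%) in p30, where it was 0.08. The 150 genes that rose in p42 had median log2 changes of 0.72 in EV and 0.48 in p30, and their 1.95 in p42 is higher in part by their choice on p42. Of the 150, 33 were also called higher in EV, out of the 1638 called there. The EV count of called genes, 1668 in all, came to 108 without EV LPS replicate 1 and to 3008 without EV LPS replicate 3, and TMM scaling gave 1728 higher (8.12%) and 1838 lower (8.64%). With a block for the replicate number, which treats same-numbered EV libraries as pairs, 6335 were higher (29.8%) and 178 lower (0.837%). In p30 the TMM counts were 41 higher (0.193%) and 57 lower (0.268%). EV LPS replicate 1 had the smallest spike-in share of all 18 libraries, 0.331%.

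The difference in LPS change itself was tested as an interaction, in which p42 libraries enter both comparisons. Against EV 42 genes changed more upward in p42 (0.197%) and 1 less (0.0047%), and against p30 46 more (0.216%) and 1 less (0.0047%). The 1 against EV was NTN3, with a mean of 8.67 counts over the p42 libraries, and the 1 against p30 was BATF2, both named after their values were seen. With TMM scaling the counts were 66 (0.31%) and 4 (0.0188%) against EV and 60 (0.282%) and 0 against p30. With the replicate block, by header number, 57 of the 21272 tested genes had a larger change in p42 than in EV and 59 a smaller one. Against p30 the block gave 79 larger and 0 smaller. Cytokines and chemokines led among genes whose counts averaged 50 or more in the 12 libraries of the contrast. IL1A stood at 0.651, 0.955 and 1.66 CPM untreated and 1.45, 0.585 and 1.16 CPM with LPS in EV cells and at 5.04, 12.3 and 7.87 and 13.8, 16.8 and 13.2 CPM in p30 cells. Its rise in p42 was larger by 5.77 ± 0.54 than in EV (adjusted p = 7.07e-23) and by 4.89 ± 0.49 than in p30 (adjusted p = 1.18e-19). CCL4 was at 0.488, 1.91 and 4.26 CPM and 1.45, 2.51 and 2.6 CPM in EV and at 4.22, 10.3 and 7.79 and 7.01, 8.55 and 4 CPM in p30, so that p42 exceeded EV by 5.19 ± 0.49 (adjusted p = 5.13e-22) and p30 by 5.36 ± 0.48 (adjusted p = 9.88e-25). With both other plasmids the LPS and untreated libraries of CCL4 overlapped.

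TNF was at 5.9, 12.5 and 12.3 CPM untreated and 7.98, 10.6 and 8.03 CPM with LPS in EV, and at 32.8, 44.8 and 48.3 and 56.1, 63.8 and 66 CPM in p30. The log2 difference of p42 from EV was 4.17 ± 0.46 (adjusted p = 2.16e-16). In p30 the TNF groups were apart, but the change of 0.56 ± 0.31 was not called (adjusted p = 1). Under that limit on counts EBI3, DLL4 and CXCL2 were among the 8 largest differences from p30, at 4.45 ± 0.54 (adjusted p = 4.78e-13), 4.36 ± 0.91 (adjusted p = 0.00109) and 3.89 ± 0.46 (adjusted p = 6.98e-14). Under the same limit CXCL1 was among the 8 largest from EV, at 4.08 ± 0.65 (adjusted p = 6.11e-07). Below the limit, IL6 differed from EV by 9.18 ± 1.70 (adjusted p = 8.35e-05) and from p30 by 6.08 ± 0.99 (adjusted p = 1.42e-06). The EV change of IL6, -4.07 ± 1.65, is part of that first difference and was not called (adjusted p = 0.0932). LOC105375914 and LINC02605 were in both sets, at 5.72 ± 0.61 and 5.04 ± 0.71 against EV.

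Some genes went in opposite directions. CCL3 rose in p42 but fell in EV from 7.85, 25 and 29.3 CPM to 5.37, 6.77 and 5.5 CPM, by 1.82 ± 0.32 on the log2 scale (adjusted p = 3.8e-05), and the log2 difference was 5.10 ± 0.46 (adjusted p = 9.32e-24). EGR2 rose in p42, fell in EV by 1.86 ± 0.34 (adjusted p = 7.02e-05) and fell in p30 by 1.55 ± 0.33 (adjusted p = 0.0082), with a log2 difference of 4.14 ± 0.48 from EV (adjusted p = 1.31e-14). CXCL8 rose in p42 and fell in EV from 219, 335 and 638 CPM to 88.9, 41.2 and 73.1 CPM (-2.55 ± 0.30, adjusted p = 3.37e-13). In p30 CXCL8 went from 259.6, 648 and 509 CPM to 125, 256 and 107 CPM (-1.54 ± 0.29, adjusted p = 0.000449). No LPS library of EV or p30 reached the CXCL8 level of the lowest untreated library of its own group. PTGS2 rose in p42 and fell in EV by 1.23 ± 0.32 (adjusted p = 0.00936).

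EGR3 and NR4A2 fell with all 3 plasmids. EGR3 changed by -2.29 ± 0.32 in EV (adjusted p = 1.24e-08) and -2.77 ± 0.33 in p30 (adjusted p = 8.53e-13), and NR4A2 by -2.20 ± 0.32 (adjusted p = 5.95e-08) and -1.98 ± 0.32 (adjusted p = 4.82e-06). Their difference between p42 and EV was 0.52 ± 0.44 and 1.04 ± 0.44, both at an adjusted p of 1. Untreated EGR3 stood at 17.7, 69.2 and 111 CPM in EV and 107, 151 and 141 CPM in p30, so that the p30 values were above all p42 values and the EV values overlapped them.

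**Figure D3:**
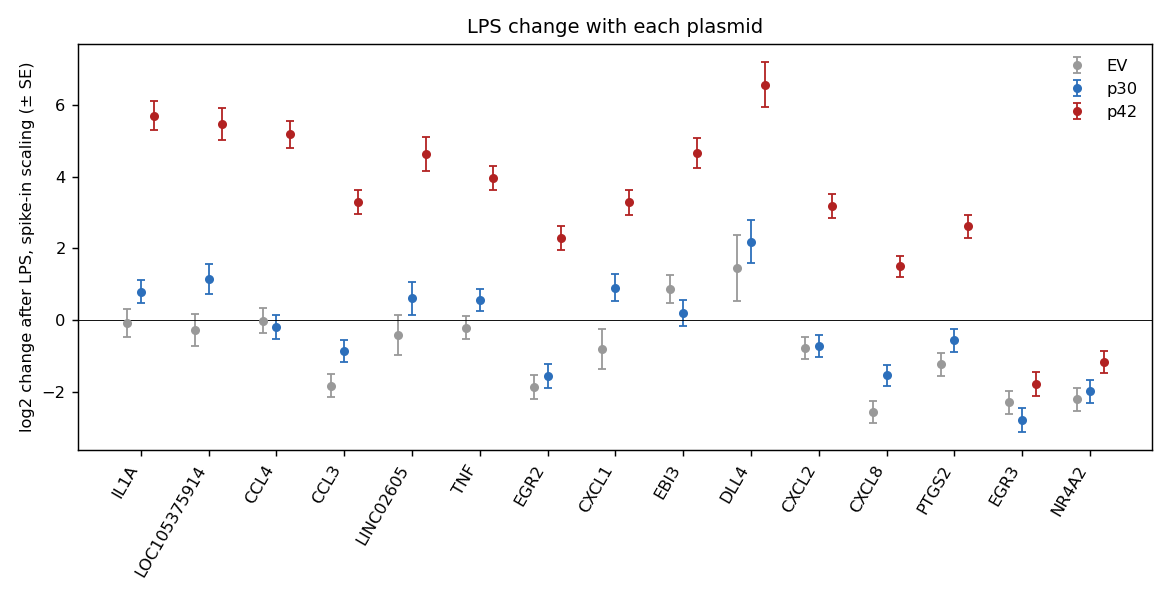
Log2 change after LPS (spike-in scaling) in EV, p30 and p42 cells, with bars of ± SE derived from the F statistic. Shown are the genes with the largest differences under the limit on counts, and CXCL8, PTGS2, EGR3 and NR4A2. The p42 point is the highest for each gene, above 0 in all but EGR3 and NR4A2. In EV only EBI3 and DLL4 lie above 0. The EV falls called at an adjusted p under 0.05 are those of EGR2, CXCL8, CCL3, PTGS2, EGR3 and NR4A2.

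RELB and NFKB2, the NF-κB subunits with the largest rise in p42, also rose in EV, by 1.72 ± 0.32 (adjusted p = 0.0001) and 1.24 ± 0.32 (adjusted p = 0.00783). Their log2 differences of p42 from EV were -0.32 ± 0.44 and 0.60 ± 0.44, neither of which passed the test (adjusted p = 1 for both). Of the 12 feedback inhibitors 3 differed from EV and 4 from p30, of 23 cytokines 7 and 7, of 7 CXC chemokines 5 and 4, of 9 CC chemokines 4 and 5, and of 21 effector genes 8 and 6. TNFAIP3 differed from EV by 2.46 ± 0.43 (adjusted p = 2.07e-05) and from p30 by 2.25 ± 0.43 (adjusted p = 0.0002). TLR4 in untreated cells was at 20.7, 16.2 and 23.3 CPM in EV, 33, 46.4 and 33 CPM in p30 and 44.8, 46.3 and 81.8 CPM in p42, and CD14 at 0.203, 0.694 and 0.434, 3.17, 5.4 and 4.16 and 4.6, 5.21 and 7.87 CPM. The EV values of CD14 were the lowest, and the p30 and p42 values overlapped.

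**Figure D4:**
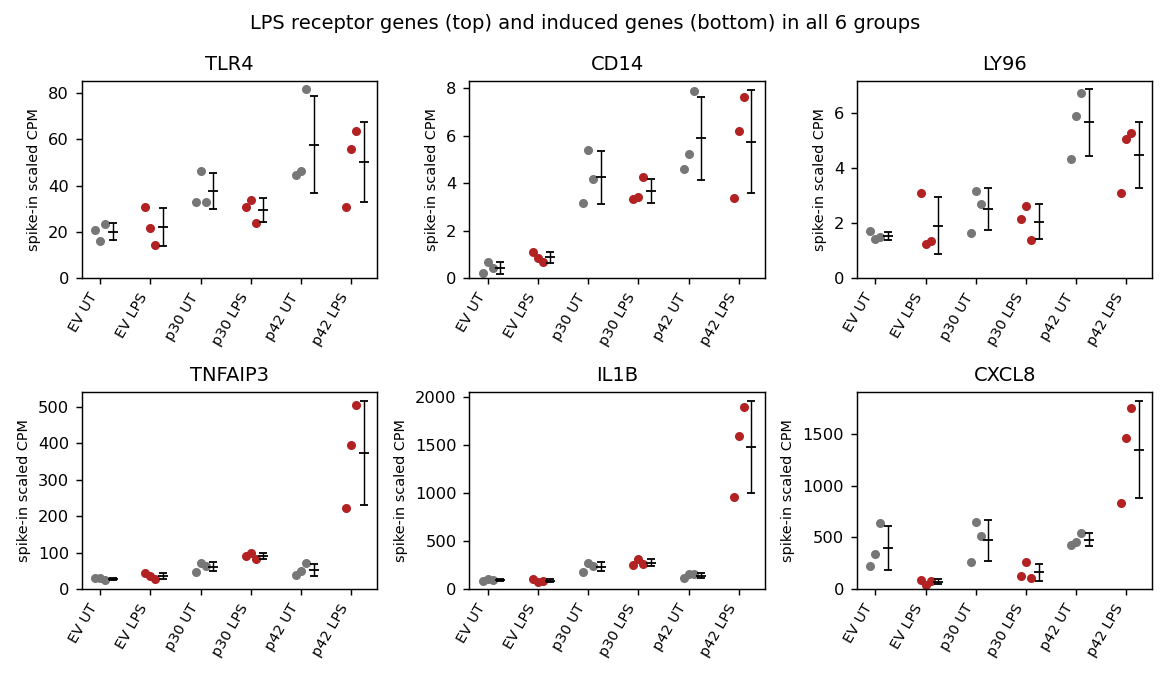
Spike-in scaled CPM of TLR4, CD14 and LY96 (top) and of TNFAIP3, IL1B and CXCL8 (bottom) in all 6 groups, one point per library with the mean and SD beside it. In p42 the LPS libraries (red) overlap the untreated ones (grey) in the top row and lie above them in the bottom row, and CXCL8 is lower with LPS in EV and p30.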

How the data were processed

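The authors aligned the reads to hg38 with Bowtie2 2.4.4 and counted them per gene with featureCounts of Subread 2.0.3, per the labels and the submitters' processing notes, and deposited raw counts for 59251 genes and 92 ERCC spike-ins. Per the study, only uniquely mapping reads were counted. The RNA was poly-A selected and made into stranded dUTP libraries, but whether counting used strand is not given in the sources used here. The study describes the replicates of a cell line as individual experiments.

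Genes kept by edgeR's filterByExpr (21272, or 35.9%) were fitted in edgeR 4.0.16 (R 4.3.3, limma 3.58.1) with the quasi-likelihood test on all 18 libraries, 1 coefficient per group, with library sizes from the ERCC rows. This scaling follows the study. Contrasts were two-sided, with Benjamini-Hochberg adjustment over all tested genes and a threshold of 0.05. The SE given for a log2 change is approximate, being the size of the change divided by the square root of its F statistic. Alternatives were TMM, RLE and ERCC-total scaling, no filter, DESeq2 1.42.0, a fit of the compared groups alone, and leaving out each library. The procedure was tested on simulated data. A further fit had a block for each genotype and replicate number of the column headers. In EV every same-numbered pair of LPS and untreated libraries deviated together (correlations 0.117, 0.745 and 0.602). The labels do not say that a shared number marks the same experiment, so pairing in EV rests on these correlations alone. The main fit did not pair libraries, and the counts with the block are given beside it. The p42 and p30 LPS columns are headed R1 to R3, but mouse samples of the series bear the same names in their labels, so these columns were tied to their group alone and are called library a (R1), b (R2) and c (R3). Intervals and floors cover counting error only.

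The named genes were, by rule, CEBPA, the 15 largest rises and falls called without overlap and with a mean of at least 50 counts, up to 6 called members of each list or, with fewer than 2 called, the 2 with most counts, the 8 largest differences from EV and from p30, and TNF, IL6, IL1B, CXCL8 and CCL2. A gene that the rule names is not reported here. The 18 gene lists and the contrasts were chosen with earlier results of these data known. Of 150 higher genes, 136 matched a GENCODE v44 symbol. Figures used matplotlib 3.10.9 in Python 3.11.15. The other cell lines of the series, mouse cells (mm39) among them, were not analysed here.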

Additional observations from a re-analysis of the deposited data

Results flagged for a closer look

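The LPS change differed between p42 and EV in 43 genes and between p42 and p30 in 47, by the edgeR interaction test. Both tests use the same p42 libraries, so the 2 sets are not independent. Among genes whose counts averaged 50 or more in the 12 libraries of the contrast, the 8 largest log2 differences from EV, all larger in p42, were IL1A (5.77), LOC105375914 (5.72), CCL4 (5.19), CCL3 (5.10), LINC02605 (5.04), TNF (4.17), EGR2 (4.14) and CXCL1 (4.08). The 8 largest from p30 under the same limit, again all larger in p42, were CCL4 (5.36), IL1A (4.89), EBI3 (4.45), DLL4 (4.36), LOC105375914 (4.30), CCL3 (4.13), LINC02605 (4.02) and CXCL2 (3.89). With TMM scaling the counts were 70 and 60, and with the replicate block 116 and 79. Some genes with fewer counts differed more, among them IL6, by 9.18 from EV and 6.08 from p30. The first of these holds an EV change of -4.07 that was not called. Of the genes named here, CCL3 was lower with LPS in EV and EGR2 in both EV and p30.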

How the results depend on the processing

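The 150 rises in p42 became 274 with TMM, 274 with RLE and 88 in a fit of the compared groups alone, and the 4 falls became 53, 51 and 1. Leaving out each library gave 80 to 404 rises and 1 to 6 falls. The EV calls went from 1668 to 3566 with TMM, 3819 with RLE, 392 with ERCC totals, 886 with no filter and 3308 in the compared groups alone, and to 108 to 3008 with a library left out. The p30 calls went from 17 to 98 with TMM, 97 with RLE and 10 with DESeq2, and to 3 to 16 with a library left out. The 43 differences from EV became 70 with TMM and 71 with RLE, and 31 to 53 with a library left out, and the 47 from p30 became 35 to 68. The median log2 change of all genes in p42 ran from -0.06 to 0.43 with a library left out. The difference in spike-in share ran from -0.142 to 0.0422 points, and it turned positive without p42 untreated replicate 1 (0.0291) or without LPS library c (0.0422).

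Among named genes, BATF2, CSF2, CXCL10, CXCL8 and NR4A2 lost their call with TMM and RLE scaling, and CSF2, CXCL10, CXCL8, EGR3, IL6 and NR4A2 with DESeq2. Leaving out a library cost 12 named genes their call at least once. They were BATF2, CCL5, CSF2, IER5, NFKB1, NFKBID, NFKBIE, NR4A2, REL, RELB, SOCS1 and TICAM1. The causes were not tested. With the replicate block, by the number in the column headers, p42 had 522 rises and 13 falls, EV 6513 calls and p30 86, and 116 genes differed from EV (57 with a larger change in p42 and 59 with a smaller one) and 79 from p30 (all larger). Of the 150 rises 148, and of the 4 falls 3, were called with the block, and BATF2 (adjusted p = 0.112) and CSF2 (adjusted p = 0.079) were not, while JUNB (adjusted p = 0.0183) was. Same-numbered p42 libraries deviated together at correlations of 0.295, 0.0554 and 0.282, not all over 0.1, though each untreated library correlated best with its own number, a hint from the data and not from the design. In p30 the correlations were 0.484, 0.606 and -0.296. Depth limits DLL4, IL6, CSF2, CSF3 and CCL20, whose untreated groups held few counts.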
